A study of Mus musculus with 63 samples.

Results

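The genes described here encode the subunits of the INO80 chromatin remodeller and the cohesin and chromatin looping factors. They were taken by name from tables of RNA-seq read counts: 33 genes were listed, and 32 of them were among the 47517 gene symbols of each table, 13 INO80 subunits and 19 cohesin and looping factors. The INO80 set is Ino80, Ino80b, Ino80c, Ino80d, Ino80e, Actr5, Actr8, Ruvbl1, Ruvbl2, Nfrkb, Mcrs1, Tfpt and Uchl5, and Yy1ap1 is the listed gene without a row. The cohesin and looping set is Ctcf, Smc1a, Smc1b, Smc3, Rad21, Rec8, Stag1, Stag2, Stag3, Nipbl, Mau2, Wapl, Pds5a, Pds5b, Cdca5, Esco1, Esco2, Ldb1 and Zfp143.

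The study concerns the transcription factor YY1 in mouse pluripotent cells of the C57BL/6 strain, and 22 of its 63 samples are the RNA-seq libraries used here, in 10 groups. Embryonic stem (ES) cells were kept in serum-free 2i medium and extended pluripotent stem (EPS) cells in serum-free LCDM medium, with 3 libraries each. EPS cells also carried a control short hairpin RNA (EPS shCtrl) or one against Yy1 (EPS shYy1), and ES cells a control construct (ES oeCtrl) or one that overexpresses Yy1 (ES oeYy1), with 2 libraries per group. The same 4 lines were sampled again after 6 days in a medium that the labels call F4H, whose composition they do not give, with 2 libraries per group. Per the labels the cells grew either on feeder cells (fibroblasts of mouse embryos that no longer divide) or on Matrigel, and which applied to a library is not stated. The labels do not describe the constructs or say whether a line is 1 clone. On day 6 the deposited tables of the controls carry no construct in their names, so the titles (oeCtrl and shCtrl) were followed. The labels do not say whether replicates came from separate cultures, so the p-values measure the spread between these libraries, which may be technical.

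INO80 is a multi-subunit remodeller that moves nucleosomes and exchanges histone variants, and YY1 is known to associate with it. Cohesin is a ring of SMC and kleisin proteins with a STAG subunit that extrudes chromatin loops until it meets CTCF and also holds sister chromatids together. Loading needs NIPBL and MAU2, release needs WAPL with PDS5, and in S phase ESCO acetyltransferases and sororin (Cdca5) lock cohesive rings. Germ cells replace several subunits by SMC1B, REC8 and STAG3. LDB1 and ZFP143 are further proteins with reported roles in enhancer and promoter loops, as is YY1 itself.

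Gene counts came to 13672061 to 20782348 per library, and 3 counts, the most that a count of 0 allows, correspond to 0.144 to 0.219 counts per 1000000 gene counts (CPM), which covers counting error only. All 32 genes passed the filter on low counts in each model. Changes below are edgeR log2 fold changes ± SE, with Benjamini-Hochberg adjusted p over all genes tested, and a gene was called at an adjusted p under 0.05. Whether groups overlapped refers to plain CPM and describes these libraries only. With 2 or 3 libraries per group, genes that were not called could also lie apart. How many of all genes lay apart in a tested comparison was not counted. ES replicate 3 and EPS replicate 3 stood apart from the other libraries of their groups (chi-square per degree of freedom 27.2 to 39.0, against 6.60 and 7.55 for replicates 1 and 2), and the EPS shCtrl replicates also differed from each other (22.8). Yy1 itself stood at 70.5 and 70.5 CPM in EPS shYy1 against 134 and 134 in EPS shCtrl, and at 934 and 941 CPM in ES oeYy1 against 120.4 and 123.5 in ES oeCtrl. On day 6 it was 331.5 and 324.5 CPM with the overexpression construct against 119.5 and 126 in its control. In the day 6 libraries labelled shYy1 it was 114 and 109.6 CPM against 129 and 122.5 in shCtrl, which do not overlap in plain CPM but after TMM scaling give a difference of -0.03 ± 0.05 (adjusted p = 0.566), so Yy1 was not called lower there. The median gene differed in plain CPM by -0.13 in that comparison, by 0.15 between the day 6 controls and by 0.11 between the stages of EPS shCtrl, and in the other 8 pairs of groups by at most 0.07 in size. The TMM factors remove these shifts, and 0 of the 32 genes were called against the order of their CPM means.

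The spread between groups differed widely from gene to gene, with the germ cell cohesin genes Smc1b and Stag3 and the acetyltransferase gene Esco2 at the upper end. In 24 of the 32 genes the highest group mean was more than 2 times the lowest, and for Smc1b (137 times), Stag3 (26.9 times) and Esco2 (13.5 times) it exceeded 10 times. How many of all genes exceed 2 times was not counted. For Actr8 the ratio was 1.67 and for Pds5a 1.70. Among the 4 comparisons of undifferentiated groups, 10 genes were not called in any: Actr5, Nfrkb, Mcrs1, Ctcf, Smc3, Rad21, Nipbl, Pds5b, Ldb1 and Zfp143. These include the cohesin core genes Smc3 and Rad21 and the loop anchor gene Ctcf, which passed the threshold in some alternatives given below. The share of all genes called in none of these comparisons was not counted, so the number has no background.

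**Figure D1:**
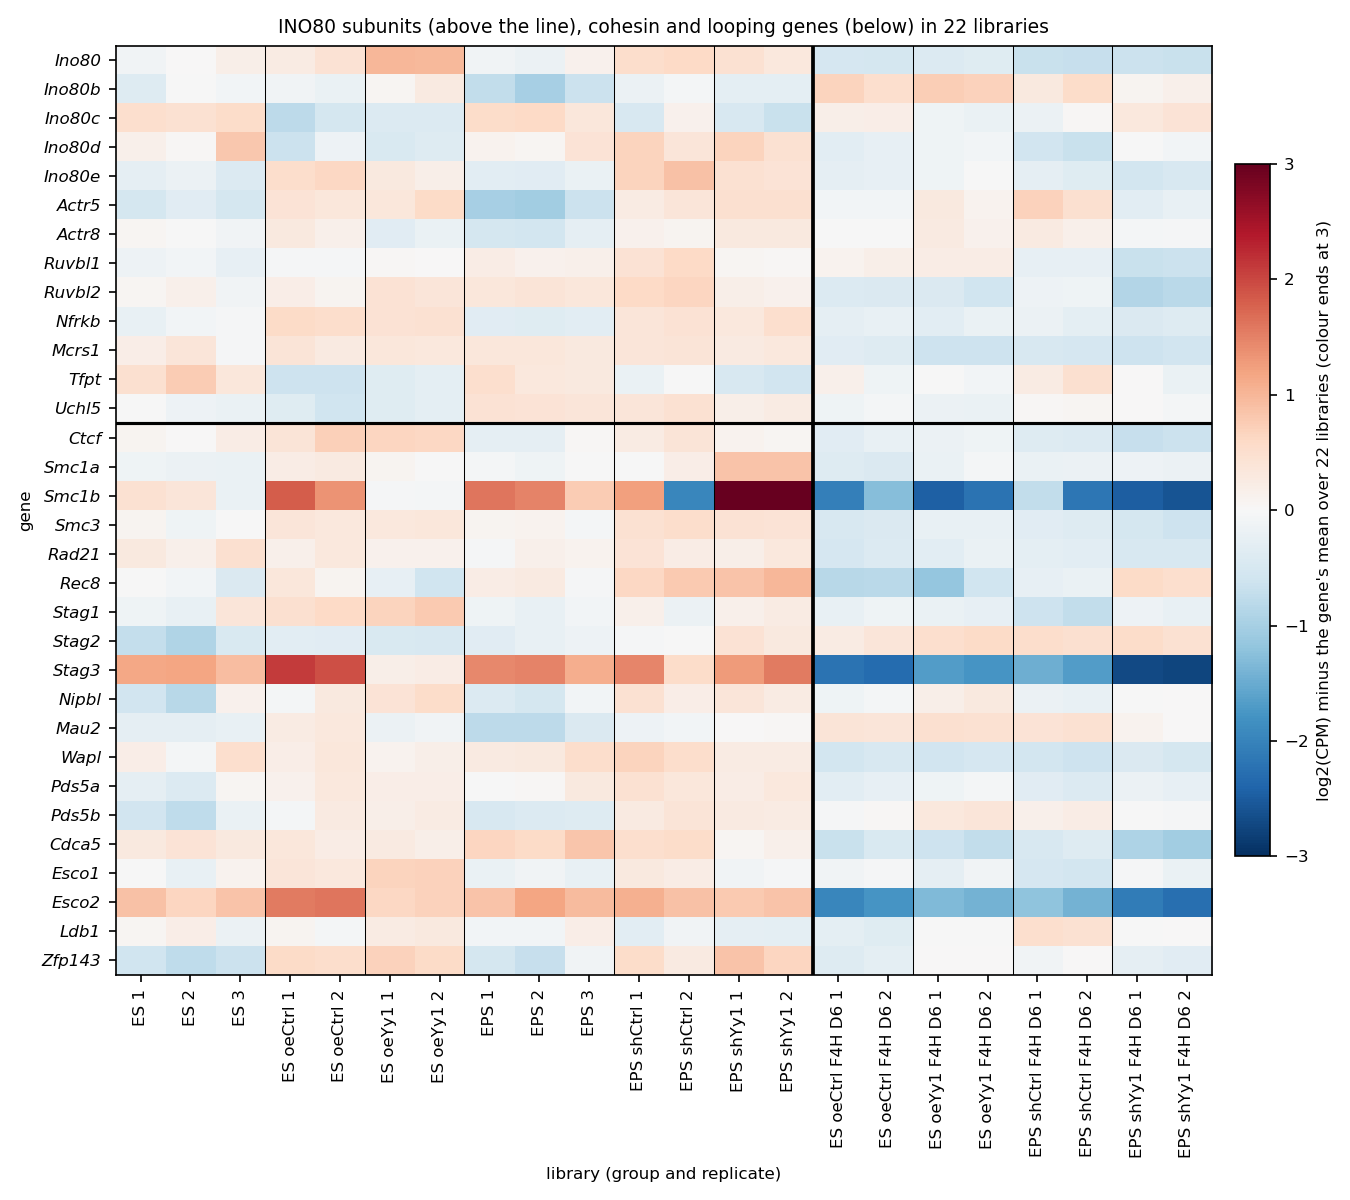
Heat map of log2 CPM minus the mean of each gene over all 22 libraries, with the 13 INO80 subunits above and the 19 cohesin and looping factors below, and the libraries in columns by group. The colour scale ends at -3 and 3, which the EPS shYy1 libraries exceed for Smc1b. The 8 day 6 columns are lower for most cohesin genes, and Stag3 and Esco2 show the step in every line.

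Cells without a construct (ES and EPS, 6 libraries) and construct-carrying cells (8 undifferentiated libraries) formed separate ranges for 11 of the 32 genes. In 9 of these the construct lines were higher, where 13.1% of the 13608 genes with a mean of at least 1 CPM were, and in 2 they were lower (11.1% of genes). Zfp143, a zinc finger factor that binds promoters, ran from 18.97 to 29.5 CPM in the former and from 38.6 to 57.4 CPM in the latter. For Actr5, an actin-related subunit of INO80, the ranges were 5.97 to 9.60 and 14.5 to 18.3 CPM. Tfpt, a metazoan INO80 subunit, went the other way, with 23.6 to 33.1 against 12.6 to 19.4 CPM. Ino80, Ino80e, Nfrkb, Smc1a, Smc3, Mau2 and Pds5b were also higher and Ino80c lower in the construct lines. The constructs and whatever else differed between these sets of libraries cannot be told apart, and no test was made, so the tested comparisons below stay within 1 kind of library. Feeder cells express fibroblast markers, and the levels of 16 such genes were summed per library. For ES libraries the sum ran from 2715 to 4966 CPM, for EPS libraries from 365 to 1103 CPM. Among the construct lines it ran from 17.7 to 92.3 CPM. Single markers differed in EPS shCtrl, where the mean of Lum was 0 while Col5a1 stood at 10.1 and Fbn1 at 7.77 CPM. Loxl1 had a mean of 9.65 CPM there, above its 7.85 CPM in EPS.

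EPS cells were compared with ES cells to ask how the 2 pluripotent states differ. Uchl5, Ruvbl1 and Ruvbl2 of INO80 and Stag2, Cdca5 and Pds5a of cohesin were higher in EPS, and Ino80b, Actr8 and the loader gene Mau2 were lower, by 0.35 to 0.59 on the log2 scale. Of the 13 INO80 genes 3 were higher and 2 lower in EPS, and of the 19 cohesin and looping genes 3 were higher and 1 lower, where 13.8% of the 16440 genes tested were called higher and 16.9% lower. The median change was 0.00 over the INO80 genes, 0.16 over the cohesin and looping genes and 0.00 over all genes. With the replicate number as a block, which pairs these libraries, 14 genes were called in place of 9 (11 higher, 3 lower), and without EPS replicate 3 also 14 (10 higher, 4 lower). In bulk RNA, fewer cells of a type and less RNA per cell cannot be told apart. Of the 16 fibroblast markers 13 were lower in EPS, with the sums given above. Their part in these differences was not tested.

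The ATPase and deubiquitinase partners of INO80 were the subunits higher in EPS. Uchl5, the deubiquitinase that INO80 shares with the proteasome, stood at 87.8, 87.1 and 83.5 CPM in EPS and 64.6, 58.5 and 57.0 CPM in ES, a difference of 0.59 ± 0.10 (adjusted p = 3.11e-04). The groups did not overlap. Ruvbl1 and Ruvbl2, the AAA+ ATPases that form a ring shared with other remodellers, differed by 0.39 ± 0.10 (adjusted p = 0.00501) and 0.38 ± 0.10 (adjusted p = 0.00597). Ruvbl1 lies on chromosome 6 (chr6:88465409-88497566, GRCm38.p6), where the median of 768 tested genes was -0.29. Ino80b, a small subunit also on chromosome 6, was lower, at 7.64, 6.30 and 8.04 CPM in EPS and 9.65, 12.6 and 11.99 CPM in ES, or -0.58 ± 0.16 (adjusted p = 0.00980). That call was lost without EPS replicate 2 (adjusted p = 0.0517). Actr8, an actin-related subunit, was lower by a smaller amount (-0.37 ± 0.10, adjusted p = 0.0110), and the ATPase Ino80 itself did not pass the test (0.00 ± 0.10, adjusted p = 0.981).

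Among the called cohesin genes the X-linked Stag2 differed most. Stag2, whose protein is the more abundant STAG of many somatic cells, stood at 99.6, 109 and 113 CPM in EPS and 76.8, 67.1 and 92.0 CPM in ES, or 0.51 ± 0.10 (adjusted p = 8.23e-04), while the median of X-linked genes was 0.06. Its paralogue Stag1 was 119, 113 and 125 against 120, 113 and 168 CPM, overlapping ranges with no call (-0.10 ± 0.12, adjusted p = 0.564). Smc1b, the germ cell SMC1, was 6.94, 6.40 and 3.87 CPM in EPS and 3.12, 2.945 and 1.97 CPM in ES, groups that did not overlap, and its difference of 1.18 ± 0.46 was not called (adjusted p = 0.0711). Stag3, the germ cell STAG, overlapped, at 117, 120 and 91.6 against 95.8, 98.4 and 81.6 CPM (0.32 ± 0.18, adjusted p = 0.191). Cdca5 (sororin, 0.41 ± 0.09, adjusted p = 0.00188) and Pds5a (0.37 ± 0.10, adjusted p = 0.0124), which regulate how long cohesin stays on DNA, were also higher. Mau2, the partner of the loader NIPBL, was lower, at -0.35 ± 0.09 (adjusted p = 0.00708), beside a chromosome 8 median of -0.28, and Ctcf on the same chromosome was not called (-0.21 ± 0.10, adjusted p = 0.127). For Ldb1 the difference was 0.04 ± 0.11 (adjusted p = 0.828).

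Genes that work beside these complexes were counted from further lists. Where such a list had a count of 0 in edgeR, here or in a later comparison, 0 to 2 of its genes were at an unadjusted p under 0.05 in that direction and DESeq2 called 0 or 1. For EPS against ES, the SRCAP and TIP60 remodellers had 2 of 17 higher and 1 lower, condensin 2 of 8 higher and 0 lower, SMC5/6 0 of 6 higher and 1 lower, the cohesin cycle (shugoshins, separase, securin and replication-linked loaders) 1 of 10 higher and 1 lower and partners of looping factors 2 of 20 higher and 2 lower. Securin (Pttg1), the inhibitor of separase, was 0.71 ± 0.22 and the LIM-domain gene Lmo4, whose protein binds LDB1, 0.58 ± 0.14. Of 15 S phase genes 4 were higher and 0 lower, and of 15 G2/M genes 1 was higher and 1 lower. Among 11 meiotic and germline genes tested 4 were higher and 1 lower, Ddx4, a germ cell helicase, by 1.95 ± 0.18.

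The hairpin against Yy1 was compared with its control in EPS cells to ask what a lower Yy1 level does to these genes. Smc1b and the X-linked Smc1a were higher with the hairpin, and Ruvbl1, Ruvbl2, Ino80e, Cdca5, Wapl and Esco1 were lower. Of the INO80 subunits 0 were called higher (also 0 at an unadjusted p under 0.05 in edgeR and 0 by DESeq2) and 3 lower of 13, and cohesin and looping genes went 2 higher and 3 lower of 19, against 15.1% of all genes higher and 13.3% lower. The medians were -0.24 for INO80, -0.13 for cohesin and looping genes and -0.01 for all genes. Without EPS shCtrl replicate 2, EPS shYy1 replicate 1 or EPS shYy1 replicate 2, 5 genes were called in place of 8 (2 higher, 3 lower each time). Ruvbl1 stood at 117 and 114.5 CPM in EPS shYy1 and 151 and 170.4 CPM in EPS shCtrl, or -0.54 ± 0.12 (adjusted p = 0.00248). Ruvbl2 went from 323 and 334 CPM in the control to 239.5 and 231 CPM, or -0.55 ± 0.12 (adjusted p = 0.00229). Neither gene's groups overlapped. Ino80e, a subunit of the metazoan module of INO80, was the third called gene (-0.42 ± 0.12, adjusted p = 0.0183). That call was lost without EPS shCtrl replicate 2 or either EPS shYy1 replicate, and in a fit of the compared libraries alone. The ATPase Ino80 was 114.5 and 104 against 119.8 and 126 CPM, which did not pass the test (-0.24 ± 0.12, adjusted p = 0.144).

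Smc1b, the germ cell paralogue of the SMC1 subunit, rose most of the 32 genes under the hairpin. It stood at 56.0 and 51.4 CPM in EPS shYy1 and at 5.36 and 0.588 CPM in EPS shCtrl, a change of 4.15 ± 0.56 (adjusted p = 1.39e-04). The controls differ from each other severalfold, yet both lie far below the hairpin libraries. The change was 6.38 (adjusted p = 4.35e-07) without EPS shCtrl replicate 1. In the other 4 undifferentiated groups Smc1b ran from 1.97 to 7.98 CPM. Smc1a, the somatic paralogue, stood at 363 and 365 against 201 and 230.5 CPM, or 0.69 ± 0.11 (adjusted p = 2.13e-04). Smc1a is X-linked (chrX:152016428-152061973), and the median of 607 X-linked genes tested was 0.83, with a summed X-linked level of 47534 to 48333 CPM against 28098 to 28535 CPM. Its rise was thus no larger than that of the median X-linked gene. Y-linked genes summed to 159 to 162 CPM in EPS shYy1 and 6.43 to 7.94 CPM in EPS shCtrl, and Xist, the RNA that silences an X chromosome, stood at 10.5 to 11.6 and 4.59 to 25.9 CPM. The 2 lines thus differ in their sex chromosome levels as well as in the hairpin, and these cannot be told apart here. The X-linked Stag2 was 169 and 155.5 against 122.5 and 126 CPM and did not pass the test (0.32 ± 0.12, adjusted p = 0.0546).

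Rec8 and Stag3, the other germ cell cohesin genes, were not called. Rec8, the meiotic kleisin, was 31.9 and 34.9 against 27.1 and 30.5 CPM (0.15 ± 0.19, adjusted p = 0.594), and its paralogue Rad21 differed by -0.13 ± 0.12 (adjusted p = 0.449). Stag3 was 104 and 128 against 118 and 62.8 CPM, overlapping ranges (0.31 ± 0.22, adjusted p = 0.324). The summed level of the 12 meiotic and germline genes was 251 to 263 CPM in EPS shYy1 and 188 to 271 CPM in EPS shCtrl, and of 11 tested 2 rose (Hormad1, a meiotic axis gene, by 1.77 ± 0.27, and Dazl, a germ cell RNA-binding gene, by 1.47 ± 0.31) and 3 fell. Levels of cell type markers also differed between these lines. Fibroblast markers summed to 81.6 to 92.3 CPM against 31.9 to 60.1 CPM. Of 10 endoderm markers tested 6 were called lower and 0 higher (also 0 at an unadjusted p under 0.05 in edgeR and 0 by DESeq2), and the 12 on the list summed to 25.6 to 28.2 CPM in EPS shYy1 and 69.4 to 76.7 CPM in EPS shCtrl. Of 10 pluripotency markers 4 were higher, among them Nanog, a core pluripotency factor, at 1.04 ± 0.13, and 3 lower, with sums of 6616 to 6859 against 5009 to 5840 CPM. The part of these cell type markers in the hairpin results was not tested.

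Cdca5, Wapl and Esco1 were the genes for cohesin release and locking called lower with the hairpin. Cdca5 stood at 74.2 and 78.7 CPM against 99.7 and 104 CPM (-0.48 ± 0.11, adjusted p = 0.00358), Wapl, the release factor, differed by -0.42 ± 0.13 (adjusted p = 0.0248) and Esco1, which acetylates SMC3 outside S phase as well, by -0.40 ± 0.13 (adjusted p = 0.0264). The groups did not overlap in any of the 3. Not all 3 calls held without EPS shCtrl replicate 2 or either EPS shYy1 replicate. The same was true without a filter on low counts and in a fit of the compared libraries alone. Which of them were lost was not followed. Esco2, the S phase acetyltransferase, was not called (-0.22 ± 0.13, adjusted p = 0.199), and neither were Pds5a (-0.19 ± 0.13, adjusted p = 0.275) and Pds5b (-0.13 ± 0.15, adjusted p = 0.545). Ctcf stood at 191 and 186 CPM in EPS shYy1 and 209.6 and 231 CPM in the control and missed the threshold (-0.29 ± 0.12, adjusted p = 0.0897), as did Ldb1 (-0.14 ± 0.14, adjusted p = 0.471). Without EPS shCtrl replicate 1 Ctcf passed it, at -0.41 (adjusted p = 0.0396).

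In the neighbouring complexes, 5 of the 17 SRCAP and TIP60 subunits were called lower and 0 higher, Epc1, a TIP60 scaffold, at -0.86 ± 0.13. Looping partners were 1 of 20 higher and 8 lower, among them Lmo4 at -1.32 ± 0.18 and the bromodomain gene Brd2 at -0.53 ± 0.10. Cohesin cycle genes were 4 of 10 higher and 1 lower, with the replication-linked loader gene Chtf18 at 0.55 ± 0.13. Condensin was 0 of 8 higher and 0 lower and SMC5/6 0 of 6 higher and 0 lower. S phase genes were 1 of 15 higher and 1 lower and G2/M genes 1 of 15 higher and 1 lower.

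**Figure D2:**
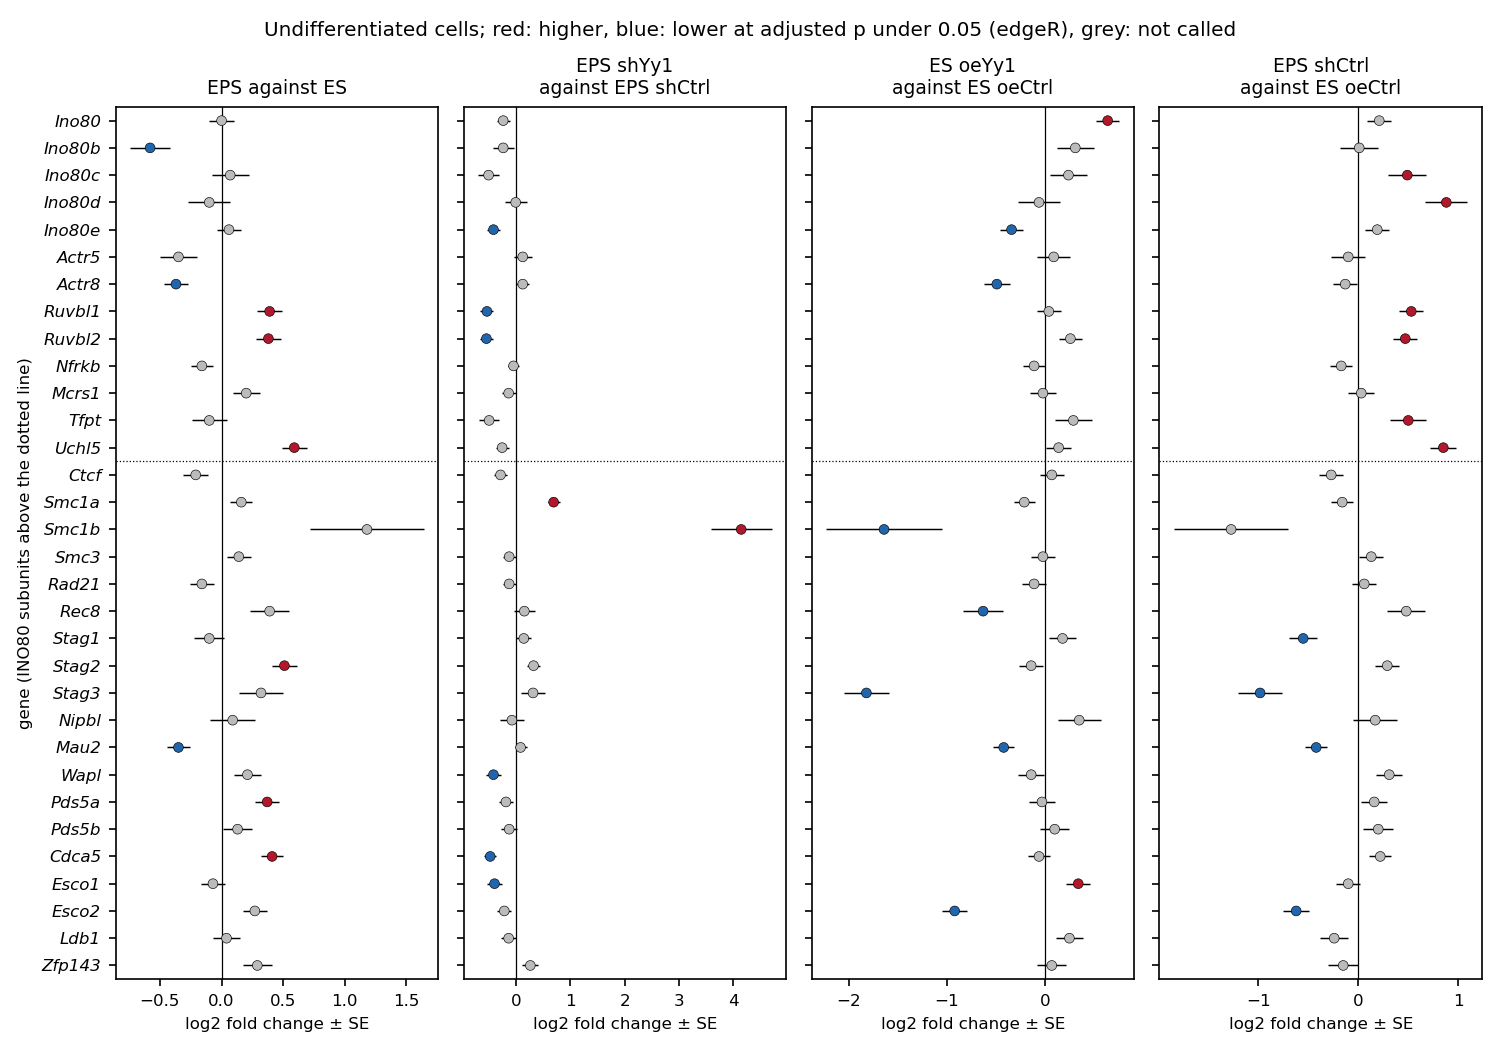
Log2 fold changes (points) with SE (bars) for each gene in the 4 comparisons of undifferentiated groups, INO80 subunits above and cohesin and looping factors below. Smc1b in EPS shYy1 (4.15) and Stag3 in ES oeYy1 (-1.82) lie far from the other genes, most of which lie within 0.5 of 0.

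Overexpression of Yy1 in ES cells was compared with its control to ask the converse. Ino80 and Esco1 were higher with the construct, and Stag3, Smc1b, Rec8, Esco2, Mau2, Actr8 and Ino80e were lower. Of the INO80 genes 1 was higher and 2 lower, and of the cohesin and looping genes 1 was higher and 5 lower, while 14.8% of all genes were called higher and 17.1% lower. The medians were 0.09, -0.06 and, over all genes, 0.01. Without replicate 1 of either group 4 genes were called in place of 9, and without replicate 2 of either group 5. The ATPase Ino80 (chr2:119373042-119478685) rose from 98.5 and 112 CPM in ES oeCtrl to 165 and 164.5 CPM in ES oeYy1, or 0.64 ± 0.12 (adjusted p = 5.16e-04). Its groups did not overlap, and ES oeYy1 held the highest Ino80 level of the 10 groups. Actr8 (-0.49 ± 0.13, adjusted p = 0.00620) and Ino80e (-0.34 ± 0.12, adjusted p = 0.0445) were lower, and Ruvbl1 and Ruvbl2 were not called (0.04 ± 0.12, adjusted p = 0.821, and 0.26 ± 0.12, adjusted p = 0.105). The calls of Actr8 and Ino80e were both lost without replicate 1 of either group. With RLE size factors, DESeq2 or no filter on low counts at most 1 of the 2 held.

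Y-linked genes summed to 28.1 to 28.8 CPM in ES oeYy1 and 114 to 133 CPM in ES oeCtrl, against 65.1 to 77.8 CPM in ES cells without a construct, and the part of this difference between the lines in the results of the overexpression comparison was not tested. Germ cell cohesin genes were lower with the construct. Stag3 (chr5:138272514-138312397) stood at 48.8 and 50.2 CPM in ES oeYy1 and 185 and 164 CPM in ES oeCtrl, or -1.82 ± 0.23 (adjusted p = 2.89e-05), and both groups lie outside the range of ES cells without a construct (81.6 to 98.4 CPM). Stag1 and Stag2 were not called (0.18 ± 0.14, adjusted p = 0.372, and -0.14 ± 0.12, adjusted p = 0.419). Rec8 was 14.8 and 11.7 against 22.3 and 18.6 CPM (-0.63 ± 0.20, adjusted p = 0.0223), a call lost without ES oeCtrl replicate 1 (adjusted p = 0.162) or ES oeYy1 replicate 2 (0.208), and Rad21 was not called (-0.11 ± 0.12, adjusted p = 0.534). Smc1b was 2.23 and 2.18 against 7.98 and 5.82 CPM (-1.64 ± 0.59, adjusted p = 0.0496). This call lay at the threshold and was lost without any 1 of these 4 libraries and in 4 other alternatives, with adjusted p from 0.0527 to 0.212, and Smc1a was not called (-0.21 ± 0.11, adjusted p = 0.162). The meiotic and germline list summed to 91.4 to 109 CPM in the control and 51.7 to 52.4 CPM in ES oeYy1, with 3 of 11 genes higher and 4 lower (Stra8, which starts meiosis, by -3.84 ± 0.45).

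The acetyltransferase paralogues were called in opposite directions, Esco1 near the threshold. Esco2 (chr14:65819027-65833969) stood at 158 and 165 CPM in ES oeYy1 and 299 and 310.4 CPM in ES oeCtrl, or -0.92 ± 0.13 (adjusted p = 4.07e-05), and Esco1 rose from 54.7 and 53.4 to 68.4 and 69.1 CPM, or 0.34 ± 0.12 (adjusted p = 0.0441). Neither gene's groups overlapped. The call of Esco1 was lost without a filter on low counts and when any single library of these groups was left out. In ES cells without a construct Esco2 was 188, 161 and 184 CPM, near the level of ES oeYy1 and below that of ES oeCtrl. The loader gene Mau2 was lower (-0.42 ± 0.11, adjusted p = 0.00794), and Nipbl was not called (0.35 ± 0.22, adjusted p = 0.257). Ctcf stood at 280.1 and 273 against 234 and 290.3 CPM (0.07 ± 0.12, adjusted p = 0.699), and Ldb1 differed by 0.25 ± 0.14 (adjusted p = 0.184). In a fit of these 4 libraries alone 14 genes were called (6 higher, 8 lower) in place of 9, Ldb1 among them (adjusted p = 0.00270).

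Shugoshins, which protect centromeric cohesin, were lower too, Sgol1 at -0.80 ± 0.11 and Sgol2a at -0.74 ± 0.12, within a cohesin cycle list of 1 of 10 higher and 4 lower. SRCAP and TIP60 subunits were 3 of 17 higher and 1 lower (Znhit1 at 0.82 ± 0.23), condensin 0 of 8 higher and 1 lower, SMC5/6 0 of 6 higher and 2 lower and looping partners 6 of 20 higher and 2 lower. The last include Ctcfl, the germ cell paralogue of CTCF, at 4.74 ± 1.11. S phase genes were 1 of 15 higher and 2 lower and G2/M genes 0 of 15 higher and 3 lower.

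**Figure D3:**
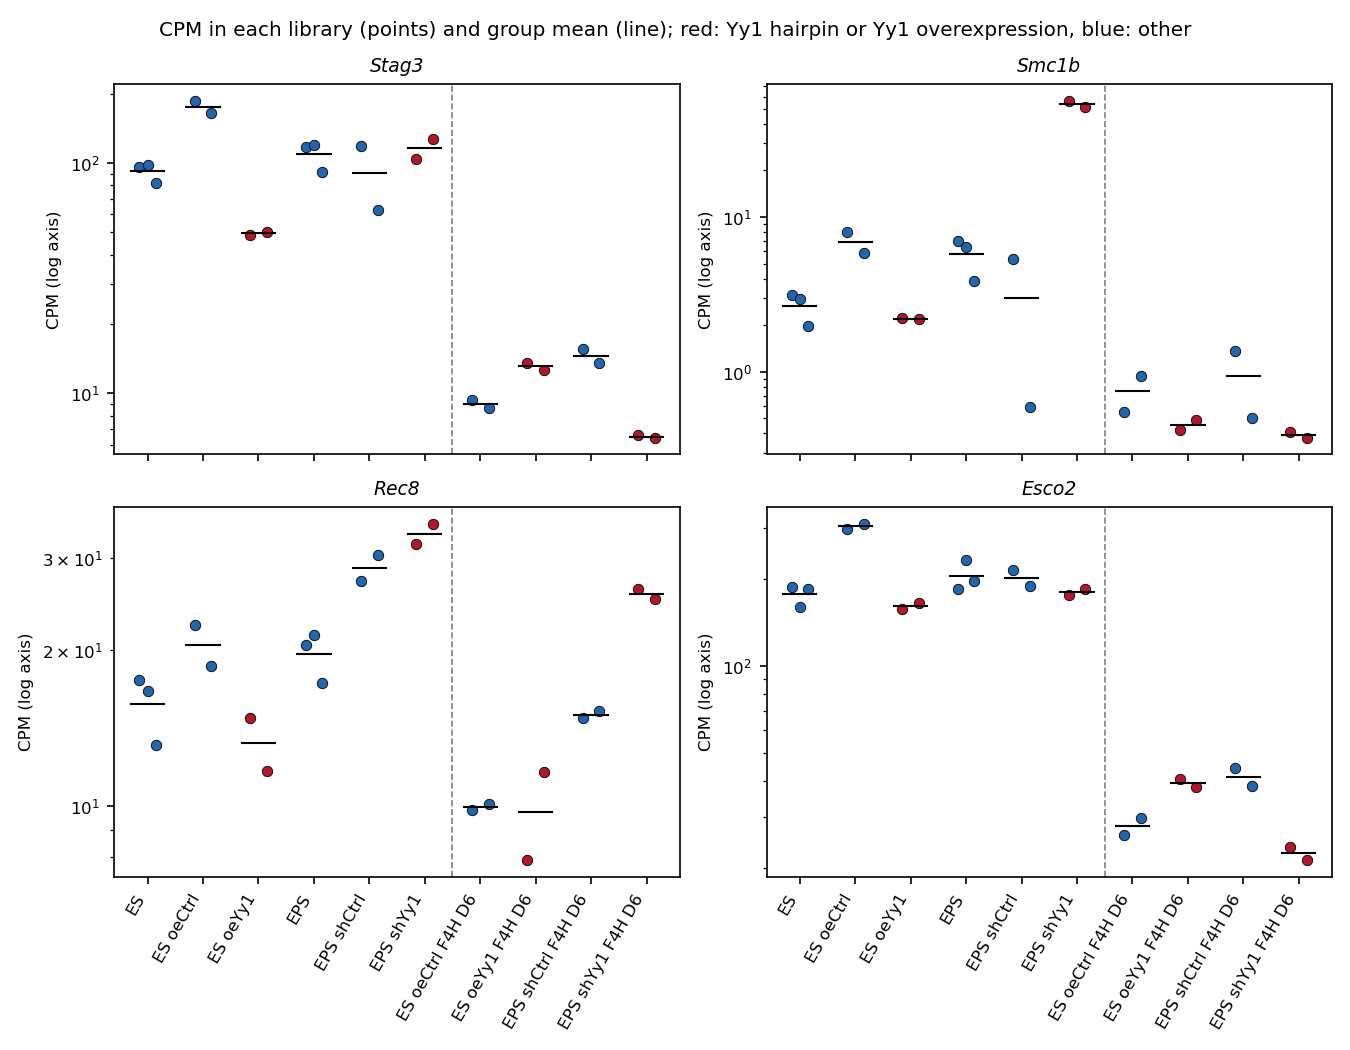
CPM of Stag3, Smc1b, Rec8 and Esco2 in each library (points, log axis) by group, with the group mean as a line and the groups with the Yy1 hairpin or construct in red. Smc1b stands at 51.4 and 56.0 CPM in EPS shYy1 and at most 7.98 CPM elsewhere, and all 4 genes are lower in ES oeYy1 than in ES oeCtrl.

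The control lines allow EPS cells to be compared with ES cells again without feeder markers at a high level. EPS shCtrl shares its libraries with the hairpin comparison and ES oeCtrl with the overexpression comparison, and the 2 lines carry different constructs, so origin and construct cannot be told apart. Uchl5, Ruvbl1, Ruvbl2, Ino80c, Ino80d and Tfpt of INO80 were higher in EPS shCtrl, and Stag1, Stag3, Esco2 and Mau2 of cohesin were lower. Of the INO80 genes 6 were higher and 0 lower (also 0 lower at an unadjusted p under 0.05 in edgeR and by DESeq2) in EPS shCtrl, where 19.7% of all genes were higher and 20.7% lower. Of the cohesin and looping genes 0 were higher (3 at an unadjusted p under 0.05 in edgeR, and 3 by DESeq2) and 4 lower. The medians were 0.21, -0.10 and 0.01 for all genes. Of 10 endoderm markers tested 7 were called higher in EPS shCtrl, Gata6, an endoderm transcription factor, by 4.89 ± 0.50 and Cubn, an endocytic receptor, by 5.16 ± 0.60, and 0 lower (also 0 at an unadjusted p under 0.05 in edgeR and 0 by DESeq2). Their sums were 69.4 to 76.7 CPM in EPS shCtrl and 17.95 to 19.5 CPM in ES oeCtrl, while Y-linked genes summed to 6.43 to 7.94 against 114 to 133 CPM. The part of either in these differences was not tested.

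Uchl5 stood at 83.7 and 89.0 CPM in EPS shCtrl and 51.2 and 43.4 CPM in ES oeCtrl, or 0.85 ± 0.13 (adjusted p = 4.34e-05), and Ruvbl1 at 151 and 170.4 and 110.2 and 110.3 CPM, or 0.53 ± 0.12 (adjusted p = 0.00173), although the median of chromosome 6 genes was -0.42. Ruvbl2 was 323 and 334 against 243 and 227 CPM (0.47 ± 0.12, adjusted p = 0.00418). These 3 genes were also higher in EPS than in ES cells without a construct. Ino80d, a metazoan subunit, was 121 and 97.7 against 48.1 and 68.8 CPM (0.88 ± 0.21, adjusted p = 0.00310), a call lost without ES oeCtrl replicate 1 (adjusted p = 0.0584), and in cells without a construct its difference was -0.10 ± 0.17 (adjusted p = 0.704). Tfpt, at 16.8 and 19.4 against 12.7 and 12.6 CPM (0.50 ± 0.18, adjusted p = 0.0368), lost its call without EPS shCtrl replicate 2 or either ES oeCtrl replicate and in a fit of these 4 libraries alone, with adjusted p from 0.0664 to 0.245. Ino80c was called at 0.49 ± 0.19 (adjusted p = 0.0494) and Ino80 was not (0.21 ± 0.12, adjusted p = 0.173).

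Stag3 was 118 and 62.8 CPM in EPS shCtrl and 185 and 164 CPM in ES oeCtrl, or -0.98 ± 0.22 (adjusted p = 0.00255), and Esco2 215 and 189 against 299 and 310.4 CPM, or -0.62 ± 0.13 (adjusted p = 9.71e-04). Without EPS shCtrl replicate 2 the difference of Stag3 was -0.63 (adjusted p = 0.0285). The high value for both genes is that of ES oeCtrl, the libraries that also serve as the control of the overexpression line. Stag1 was 146 and 117 against 181 and 198 CPM (-0.55 ± 0.14, adjusted p = 0.00573) and lost its call without EPS shCtrl replicate 2 (adjusted p = 0.0657) or ES oeCtrl replicate 2 (0.0606). Stag2 and Esco1 were not called (0.29 ± 0.12, adjusted p = 0.0646, and -0.10 ± 0.12, adjusted p = 0.562). Mau2 was lower (-0.42 ± 0.11, adjusted p = 0.00603) beside a chromosome 8 median of -0.44, and Ctcf, on the same chromosome, was not called (-0.27 ± 0.12, adjusted p = 0.0984) except without ES oeCtrl replicate 1, at -0.43 (adjusted p = 0.0333). Ldb1 differed by -0.24 ± 0.14 (adjusted p = 0.177). The meiotic and germline genes were 8 of 11 higher and 1 lower, while Stag3 was lower. SRCAP and TIP60 subunits were 4 of 17 higher and 2 lower, condensin 0 of 8 higher and 4 lower, SMC5/6 0 of 6 higher and 1 lower, the cohesin cycle 2 of 10 higher and 3 lower and looping partners 6 of 20 higher and 1 lower. Without ES oeCtrl replicate 2, 6 of the 32 genes were called in place of 10.

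**Figure D4:**
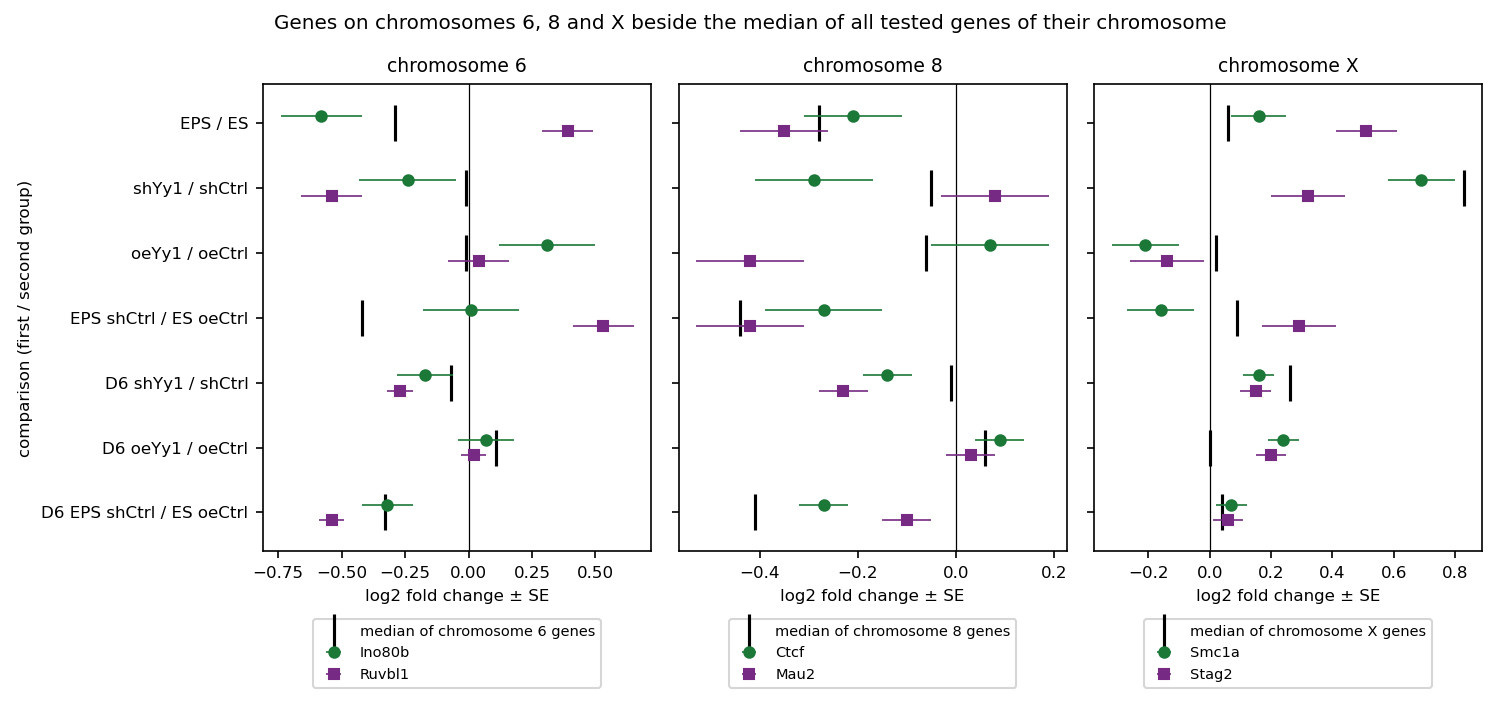
Log2 fold changes of Ino80b and Ruvbl1 (chromosome 6), Ctcf and Mau2 (chromosome 8) and Smc1a and Stag2 (X chromosome) in the 7 comparisons within a stage, each beside the median of all tested genes on its chromosome. Ruvbl1 lies above the chromosome 6 median in both undifferentiated EPS to ES comparisons, and Smc1a in EPS shYy1 (0.69) lies below the X-linked median of 0.83.

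The promoters of these genes were read for short motifs in RefSeq windows of 250 bases before to 50 bases after annotated starts (GRCm38.p6), which were at hand for 23 of the 32 genes. Both strands were searched, a motif match is a description and not a shown binding site, and the absence of a match concerns these letters in these windows only. The YY1-type letters AANATGGC occurred in 6 of the 23 genes (26.1%, against 6.96% of 27025 genes), and the E2F-type letters GCGGGAA, named for a cell cycle factor, in 5 (21.7%, against 5.29%). The E-box CACGTG occurred in 3 (13%, against 8.09%) and the ZFP143-type letters CCCAGNATG in 0 (against 2.33%). The 27025 genes are all symbols with a window, expressed here or not, while the 23 genes all passed the filter on low counts. The share among the genes tested was not counted. The E2F-type matches of Stag3 and Smc1b, the genes with the largest changes above, and of Smc1a, the paralogue of Smc1b, are shown first, 5′ to 3′ on the gene's strand with the motif in capitals (here as its reverse complement), at chr5:138280495-138280523 (+ strand), chr15:85131988-85132016 (- strand) and chrX:152016455-152016477 (+ strand):
Stag3: tatcccgtgccTTCCCGCgtttttttcta
Smc1b: aaaagaatttcTTCCCGCgcttttttttt
Smc1a: cactgcgctatTTCCCGCgcggg

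YY1-type matches are shown for Ctcf and Smc3, whose matches begin at bases 11 and 1 counted from 1 at the annotated start, and for the 2 INO80 genes that hold one, Ino80e and Ino80b, at chr8:105636537-105636566, chr19:53600385-53600414 (both + strand), chr7:126862438-126862467 and chr6:83125318-83125347 (both - strand). The motif is in capitals, as its reverse complement in Ctcf, Smc3 and Ino80e and as spelled in Ino80b:
Ctcf: accgcgccgccGCCATTTTgtgtccgagcc
Smc3: ccgcggccgccGCCATTTTgtttggccaca
Ino80e: catctcccggcGCCATTTTgcgtcaccagg
Ino80b: gttttgagaacAAGATGGCattaagcctgg
Of the 6 genes with this motif, Ino80e was called lower in both EPS shYy1 and ES oeYy1, whereas Ctcf, Smc3, Pds5b, Stag1 and Ino80b were called in neither. Both calls of Ino80e were lost in some alternatives, as given above.

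On day 6 in F4H medium the level of pluripotency markers was far lower: 10 of them summed to 327 to 686 CPM, against 5009 to 7656 CPM before, and 16 fibroblast markers to 867 to 1064 CPM. The libraries labelled shYy1 were compared with shCtrl at this stage, where Yy1 itself was not called (above) while the summed X-linked level was higher, at 43722 to 44107 against 33962 to 34014 CPM. Y-linked genes summed to 173 to 179 against 18.9 to 21.2 CPM, Xist stood at 463.5 to 476.5 against 0.252 to 0.523 CPM, and endoderm markers summed to 115 to 116 against 218 to 221 CPM, with 3 of 9 higher and 5 lower. The part of these differences between the lines in the results was not tested. Stag1, Rec8, Esco1, Ino80d and Ino80c were higher by 0.54 to 0.91 in the libraries labelled shYy1, and Stag3, Esco2, Actr5 and Ruvbl2 lower by 0.56 to 1.03. Of the INO80 genes 3 were higher and 4 lower, and of the cohesin and looping genes 8 were higher and 6 lower, where 30.9% of the 15927 genes tested were higher and 30.4% lower. The medians were -0.07, -0.08 and -0.01 over all genes.

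Subunits of INO80 moved in both directions. Ino80d was 74.9 and 71.3 CPM in the libraries labelled shYy1 and 50.8 and 47.8 CPM in shCtrl, or 0.70 ± 0.06 (adjusted p = 3.73e-15), and Ino80c, which pairs with ACTR5, was 45.8 and 48.8 against 32.4 and 38.0 CPM, or 0.56 ± 0.08 (adjusted p = 5.21e-09). Actr5 itself was lower, at 9.73 and 10.4 against 19.6 and 16.9 CPM, or -0.73 ± 0.12 (adjusted p = 3.50e-07). The groups of these 3 genes did not overlap, nor did those of Nfrkb and Mcrs1, which were not called. Ruvbl2 was 116 and 121 against 190.5 and 195 CPM (-0.56 ± 0.05, adjusted p = 2.58e-15) and Ruvbl1 70.9 and 72.4 against 94.6 and 95.0 CPM (-0.27 ± 0.05, adjusted p = 1.41e-05), both lower as in undifferentiated EPS shYy1. The ATPase Ino80 was called at 0.16 ± 0.06 (adjusted p = 0.0238), but not without any 1 of these 4 libraries, without a filter on low counts or with DESeq2, where its adjusted p ran from 0.0596 to 0.134.

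The STAG subunits split. Stag1 rose to 118 and 112 CPM from 85.5 and 78.9 CPM in shCtrl, or 0.62 ± 0.05 (adjusted p = 1.63e-15), Stag3 was 6.57 and 6.43 against 15.6 and 13.6 CPM, or -1.03 ± 0.13 (adjusted p = 1.54e-09), and Stag2 was called higher by 0.15 with overlapping groups, beside an X-linked median of 0.26. Rec8 was 26.1 and 25.0 against 14.8 and 15.2 CPM, or 0.91 ± 0.11 (adjusted p = 1.03e-10), and Rad21 was not called (-0.04 ± 0.04, adjusted p = 0.428). Smc1b ranged from 0.375 to 1.36 CPM in these 4 libraries and was not called (-1.09 ± 0.55, adjusted p = 0.0810).

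Esco1 and Esco2 again went opposite ways. Esco1 was 41.5 and 37.2 against 30.4 and 29.3 CPM (0.54 ± 0.08, adjusted p = 2.56e-08) and Esco2 23.7 and 21.3 against 44.3 and 38.4 CPM (-0.74 ± 0.09, adjusted p = 4.25e-11), with no overlap in either. Cdca5 was lower as well (-0.41 ± 0.07, adjusted p = 2.80e-06), and the loader Nipbl (0.34 ± 0.05, adjusted p = 1.04e-08), Wapl (0.23 ± 0.05, adjusted p = 2.09e-05) and Pds5a (0.29 ± 0.05, adjusted p = 1.85e-07) were higher. Ldb1 was 193 and 195 against 276 and 263 CPM (-0.34 ± 0.04, adjusted p = 1.30e-09). Ctcf was called at -0.14 ± 0.05 (adjusted p = 0.0119), a call lost without replicate 1 of either group and with DESeq2 (adjusted p 0.0639 to 0.117). Cell cycle genes were lower beside these changes, with 11 of 15 S phase genes lower and 2 higher, 13 of 15 G2/M genes lower, and S phase sums of 1678 to 1691 against 2226 to 2274 CPM. Condensin was 1 of 8 higher and 6 lower, SMC5/6 0 of 6 higher and 4 lower, the cohesin cycle 0 of 10 higher and 8 lower, SRCAP and TIP60 3 of 17 higher and 8 lower and looping partners 6 of 19 higher and 6 lower. The part of the cell cycle in the changes of Esco2 and Cdca5 was not tested.

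With the overexpression construct on day 6, cohesin genes were called upward. Of the 19 cohesin and looping genes 11 were higher and 0 lower (2 lower at an unadjusted p under 0.05 in edgeR, and 0 by DESeq2), where 20.3% of all genes were higher and 21.6% lower, and the changes were small, with a list median of 0.17 against 0.00 for all genes. They cover the ring (Smc1a 0.24 ± 0.05, Smc3 0.19 ± 0.05, Rad21 0.17 ± 0.04, Stag2 0.20 ± 0.05), the loader Nipbl (0.29 ± 0.05), Pds5a (0.15 ± 0.05), Pds5b (0.29 ± 0.05), Ldb1 (0.29 ± 0.05, adjusted p = 8.64e-07) and Zfp143 (0.30 ± 0.09). Stag3 was the largest, at 13.5 and 12.7 CPM against 9.33 and 8.66 CPM (0.50 ± 0.13, adjusted p = 0.00188), followed by Esco2 at 40.8 and 38.1 against 26.1 and 29.9 CPM (0.46 ± 0.09, adjusted p = 1.37e-05). Both had been lower with the construct in undifferentiated ES cells. Stag1 and Esco1 were not called (-0.09 ± 0.05, adjusted p = 0.175, and -0.16 ± 0.08, adjusted p = 0.103), nor was Ctcf (0.09 ± 0.05, adjusted p = 0.149) except without ES oeCtrl replicate 2, at 0.14 (adjusted p = 0.0419).

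INO80 subunits had 0 genes higher (3 at an unadjusted p under 0.05 in edgeR, and 0 by DESeq2) and 3 lower of 13, with a median of 0.02. Ino80c was 33.7 and 31.9 against 41.4 and 42.6 CPM (-0.40 ± 0.08, adjusted p = 5.24e-05), Mcrs1, a metazoan subunit, was -0.31 ± 0.06 and Ruvbl2 -0.13 ± 0.05, the last with overlapping groups. Ino80 was not called (0.09 ± 0.06, adjusted p = 0.291). Condensin also moved upward (7 of 8 higher and 0 lower), as did G2/M genes (10 of 15 higher and 1 lower, with sums of 3131 to 3211 against 2601 to 2696 CPM). The cohesin cycle list was 3 of 10 higher and 0 lower, S phase 3 of 15 higher and 2 lower, SMC5/6 2 of 6 higher and 1 lower, SRCAP and TIP60 5 of 17 higher and 1 lower and looping partners 9 of 19 higher and 1 lower. The part of the cell cycle in the upward calls was not tested.

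Between the day 6 controls, Ldb1, Actr5, Stag3 and Esco2 were higher and Ruvbl1, Stag1 and Esco1 lower in cells of EPS origin. These libraries are shared with the comparisons just given. The 2 lines carry different constructs, so origin and construct cannot be told apart. Y-linked genes summed to 18.9 to 21.2 CPM in EPS shCtrl and 104 to 106 CPM in ES oeCtrl. Endoderm markers summed to 218 to 221 against 83.2 to 83.3 CPM, with 6 of 9 higher and 3 lower. Of 10 pluripotency markers 2 were higher and 8 lower. The part of these differences in the results was not tested. Here 2 INO80 genes were higher and 7 lower, and 4 cohesin and looping genes were higher and 6 lower, where 31.6% of all genes were higher and 32.4% lower. Medians were -0.20, 0.01 and 0.02. Ldb1, the adaptor of enhancer loops, was 276 and 263 CPM in EPS shCtrl and 157 and 149 CPM in ES oeCtrl, or 0.67 ± 0.04 (adjusted p = 6.28e-20), while before F4H the same lines did not differ beyond the threshold (-0.24 ± 0.14, adjusted p = 0.177). Ruvbl1 was 94.6 and 95.0 against 122 and 127 CPM (-0.54 ± 0.05, adjusted p = 2.12e-14), beside a chromosome 6 median of -0.33, where before F4H it was higher in the EPS line. Ruvbl2 differed by 0.13 ± 0.05 (adjusted p = 0.0121), Actr5 19.6 and 16.9 against 11.5 and 11.6 CPM (0.52 ± 0.12, adjusted p = 8.96e-05) and Ino80 -0.31 ± 0.06 (adjusted p = 2.15e-05).

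In the same comparison Stag1 was 85.5 and 78.9 against 112 and 120.2 CPM (-0.64 ± 0.05, adjusted p = 2.75e-16) and Stag3 15.6 and 13.6 against 9.33 and 8.66 CPM (0.54 ± 0.13, adjusted p = 1.59e-04), while Stag2 was not called (0.06 ± 0.05, adjusted p = 0.287). Esco1 (30.4 and 29.3 against 39.8 and 42.1 CPM, -0.61 ± 0.08, adjusted p = 8.97e-10) and Esco2 (44.3 and 38.4 against 26.1 and 29.9 CPM, 0.42 ± 0.08, adjusted p = 1.33e-05) moved apart. The groups did not overlap for these 5 genes, nor for Smc3 and Rad21, which like Stag2 were not called. Ctcf was -0.27 ± 0.05 (adjusted p = 2.87e-06), smaller in size than its chromosome's median of -0.41. Here the cohesin cycle list was 6 of 10 higher and 0 lower, condensin 3 of 8 higher and 1 lower, SMC5/6 4 of 6 higher and 0 lower, SRCAP and TIP60 6 of 17 higher and 5 lower, looping partners 7 of 19 higher and 8 lower, S phase 2 of 15 higher and 6 lower and G2/M 8 of 15 higher and 3 lower.

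Between undifferentiated cells and day 6 most of these genes were called in each line, and more were lower than higher. Stag3, Esco2, Cdca5, Ctcf, Smc3, Rad21 and Ino80 were lower in each of the 4 lines, and Ino80b and Stag2 higher. The line labelled EPS shYy1 is read with Yy1 as given above. In EPS shCtrl there were 2 INO80 genes higher and 8 lower, and 3 cohesin and looping genes higher and 15 lower (background 38.0% of 17207 genes higher and 36.0% lower). EPS shYy1 had 3 INO80 genes higher and 9 lower, and 2 cohesin and looping genes higher and 14 lower (38.4% and 37.0%), ES oeCtrl 5 INO80 genes higher and 7 lower, and 1 cohesin and looping gene higher and 15 lower (37.4% and 35.6%) and ES oeYy1 2 INO80 genes higher and 6 lower, and 2 cohesin and looping genes higher and 15 lower (36.5% and 36.2%). The cohesin and looping medians were -0.83, -0.66, -0.70 and -0.59, and those of INO80 -0.77, -0.63, -0.22 and 0.09, against 0.00 to 0.04 for all genes. Lower in all 4 lines were 16 genes, 5 of INO80 (Ino80, Ino80e, Ruvbl2, Nfrkb, Mcrs1) and 11 of cohesin and looping (Ctcf, Smc1a, Smc3, Rad21, Stag1, Stag3, Wapl, Pds5a, Cdca5, Esco2, Zfp143). The share of all genes called lower in all 4 lines at once was not counted, so this number has no background beside it. The kit for library preparation is named for day 6 only, so stage and any difference in preparation cannot be told apart.

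The ranges over the 14 undifferentiated libraries, which include the 6 without a construct, and the 8 day 6 libraries, all with one, did not overlap for 9 genes, all lower on day 6, as were 12.2% of 14043 genes (16.6% were higher without overlap). They are Ino80, Ruvbl2, Mcrs1, Smc3, Rad21, Stag3, Wapl, Cdca5 and Esco2. Stag3 ran from 48.8 to 185 CPM before (median 101) and 6.43 to 15.6 CPM on day 6, and fell by 2.74 ± 0.22 in EPS shCtrl, 4.09 ± 0.25 in EPS shYy1, 4.26 ± 0.24 in ES oeCtrl and 1.96 ± 0.24 in ES oeYy1 (adjusted p from 1.07e-08 to 1.48e-05). Esco2 ran from 158 to 310.4 CPM before (median 187) and 21.3 to 44.3 CPM on day 6 (median 34.0), and its changes were -2.40 ± 0.09 in EPS shCtrl, -2.93 ± 0.09 in EPS shYy1, -3.43 ± 0.09 in ES oeCtrl and -2.07 ± 0.09 in ES oeYy1 (adjusted p from 2.71e-18 to 7.81e-15). They fell farther than every other gene of the list in ES oeCtrl, the line that started highest for both. The S phase list summed to 3851 to 4622 CPM before and 1678 to 2553 CPM on day 6, and G2/M genes to 2835 to 4740 and 2280 to 3249 CPM. The part of cell cycle activity was not tested.

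The somatic ring fell by smaller amounts in each line. Smc3, the partner of SMC1, ran from 253 to 400.2 CPM before (median 347) and 180.4 to 239.8 CPM on day 6 (median 210.3), and Rad21, the kleisin, from 375 to 535 CPM before (median 430.1) and 269 to 333 CPM on day 6 (median 297). Smc3 changed by -0.97, -0.92, -0.78 and -0.59 in EPS shCtrl, EPS shYy1, ES oeCtrl and ES oeYy1 and Rad21 by -0.74, -0.67, -0.68 and -0.43. In Smc1a the steps were -0.40, -0.94, -0.63 and -0.20, largest in EPS shYy1, where the X-linked median also fell (-0.38). Ctcf, at 147 to 290.3 CPM before (median 199.6) and 110.3 to 163 CPM on day 6 (median 139), changed by -0.83 ± 0.09 in EPS shCtrl, -0.69 ± 0.09 in EPS shYy1, -0.82 ± 0.09 in ES oeCtrl and -0.83 ± 0.09 in ES oeYy1, with adjusted p from 7.31e-08 to 1.18e-06. Stag1 changed by -0.79, -0.32, -0.70 and -0.98 while Stag2, its paralogue, rose by 0.41, 0.22, 0.64 and 0.96, so the 2 somatic STAG genes went opposite ways in each line.

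Factors that load, release or lock cohesin differed in direction. The release factor Wapl changed by -1.30, -0.66, -0.78 and -0.71 and sororin (Cdca5) by -1.08, -1.03, -0.84 and -0.95 in the same order of lines. Pds5a fell (-0.89, -0.42, -0.49 and -0.33), while Pds5b was called lower in both EPS lines (-0.26 and -0.22) and gave -0.10 and 0.08 in the ES lines. Nipbl gave -0.65, -0.24, -0.21 and -0.29, not called in ES oeCtrl, and its partner Mau2 0.43, 0.11, 0.12 and 0.56, called higher in EPS shCtrl and ES oeYy1. Esco1 gave -0.90, 0.02, -0.39 and -0.91, called in all lines but EPS shYy1. Ldb1 rose by 0.56 and 0.35 in the EPS lines and fell (-0.34 and -0.32) in the ES lines. Zfp143 fell by 0.58, 0.97, 0.88 and 0.67.

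Of the germ cell paralogues, Smc1b was called lower on day 6 in 2 of the 4 lines and Rec8 in 3. Smc1b stood at 0.375 to 1.36 CPM on day 6, and its change was -7.00 ± 0.69 (adjusted p = 3.88e-06) in EPS shYy1 and -3.20 ± 0.71 (adjusted p = 0.00201) in ES oeCtrl, while EPS shCtrl (-1.75 ± 0.75, adjusted p = 0.0556) and ES oeYy1 (-2.31 ± 1.00, adjusted p = 0.0591) missed the threshold. Rec8 fell in EPS shCtrl (-1.06 ± 0.15), ES oeCtrl (-1.02 ± 0.16) and ES oeYy1 (-0.48 ± 0.17), and in EPS shYy1 gave -0.32 ± 0.14 (adjusted p = 0.0508). The meiotic and germline list summed to 49.7 to 271 CPM before and 12.1 to 25.6 CPM on day 6.

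INO80 subunits did not move as a block. The ATPase Ino80 ran from 74.2 to 165 CPM before (median 101) and 51.3 to 64.8 CPM on day 6 (median 55.7), with changes of -1.36 ± 0.08 in EPS shCtrl, -0.97 ± 0.08 in EPS shYy1, -0.84 ± 0.08 in ES oeCtrl and -1.41 ± 0.08 in ES oeYy1. Ruvbl2 changed by -0.89, -0.92, -0.55 and -0.96, Mcrs1 by -0.83, -0.68 and -0.99 in the last 3 of these lines, Nfrkb, which tethers UCHL5, by -0.77, -0.75, -0.79 and -0.75 and Ino80e by -1.21, -0.87, -0.82 and -0.34 in the same order of lines. Ino80b rose by 0.42, 0.48, 0.76 and 0.51. Ruvbl1 fell in the EPS lines (-0.89 and -0.63), rose in ES oeCtrl (0.19) and was not called in ES oeYy1 (0.15). Ino80d fell in the EPS lines (-1.26 and -0.56) and was not called in the ES lines (0.11 and 0.29). Ino80c rose in EPS shYy1 (1.01) and ES oeCtrl (0.85) and was not called in the other lines. The medians of its chromosome 18 were 0.00, 0.29, 0.30 and 0.15 in EPS shCtrl, EPS shYy1, ES oeCtrl and ES oeYy1. Tfpt rose in all lines but ES oeYy1 (0.35, 0.51, 0.66 and 0.24), with the call in EPS shYy1 lost without its day 6 replicate 1 (adjusted p = 0.0578), Actr5 fell in all but EPS shCtrl (0.16, -0.69, -0.45 and -0.31), Uchl5 gave -0.48, -0.16, 0.40 and 0.09 and Actr8 -0.01, -0.27, -0.22 and 0.43.

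Beside them, SRCAP and TIP60 subunits had 1, 5, 3 and 3 of 17 higher and 10, 7, 6 and 8 lower in EPS shCtrl, EPS shYy1, ES oeCtrl and ES oeYy1, condensin 0, 0, 0 and 0 of 8 higher and 7, 8, 8 and 7 lower, and SMC5/6 4, 2, 1 and 2 of 6 higher and 1, 2, 3 and 0 lower. The cohesin cycle list had 2, 0, 1 and 2 of 10 higher and 7, 9, 8 and 7 lower, and looping partners 8, 7, 8 and 10 of 20 higher and 8, 7, 7 and 9 lower. Condensin, the other SMC complex of mitotic chromosomes, had 7 or 8 of its 8 genes called lower in each line.

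**Figure D5:**
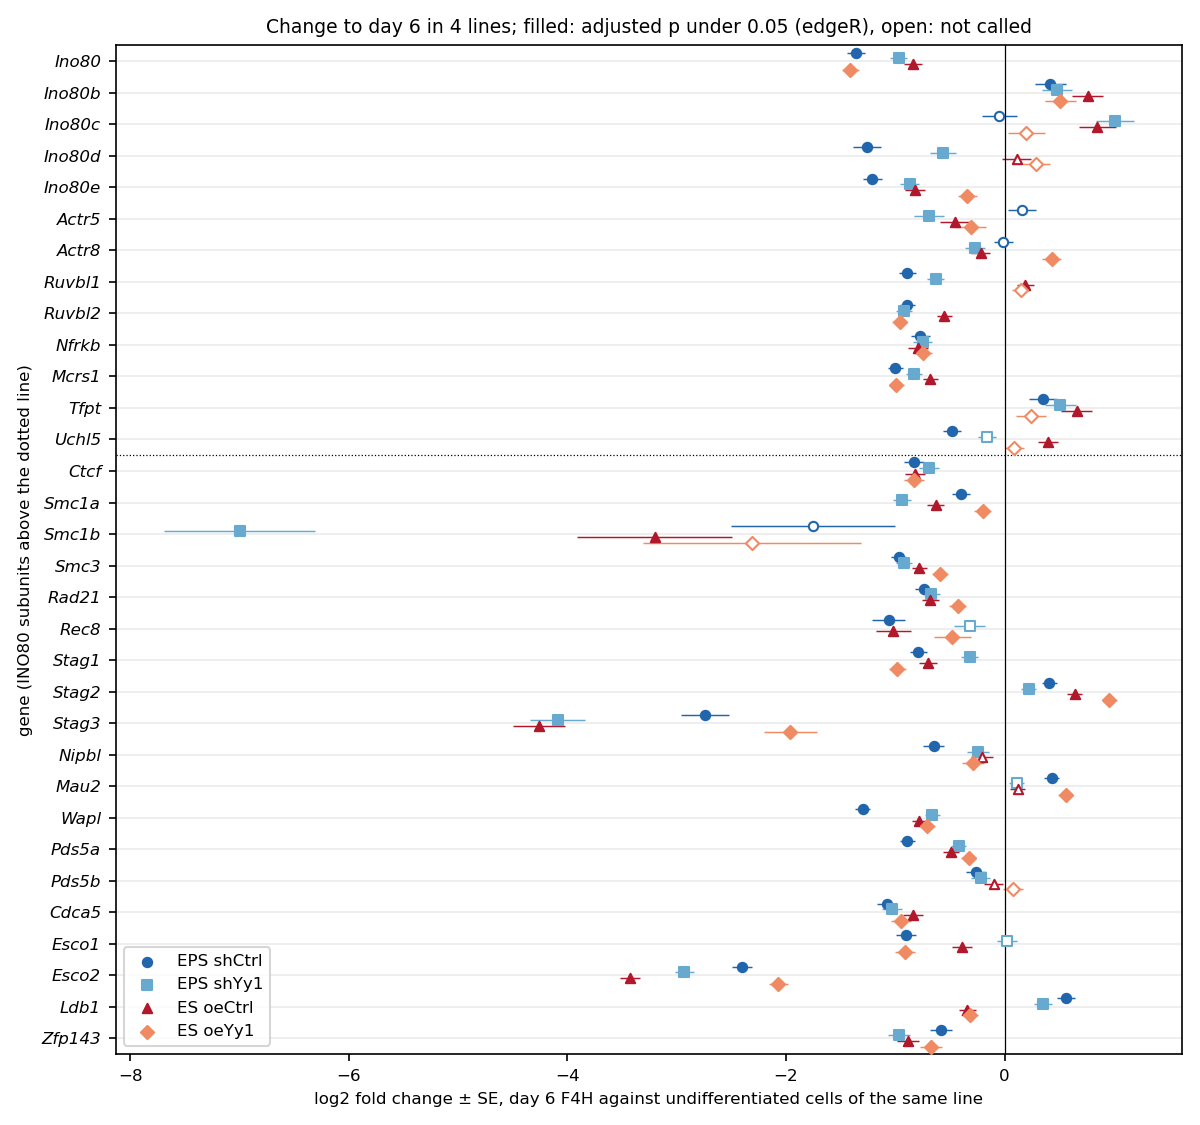
Log2 fold changes of day 6 against undifferentiated cells (points) with SE (bars) in the 4 lines, filled where called and open where not. Stag3 and Esco2 lie between -1.96 and -4.26 in every line, and Ino80b and Stag2 lie above 0 in every line.

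Whether an effect differed between stages was tested directly, as the effect on day 6 minus that in undifferentiated cells. For the hairpin there were 5 INO80 genes higher and 1 lower and 6 cohesin and looping genes higher and 6 lower (background 21.2% and 20.2% of 17207 genes), for overexpression 2 INO80 genes higher and 4 lower and 5 cohesin and looping genes higher and 1 lower (18.3% and 19.3%). The response to F4H of EPS shCtrl minus that of ES oeCtrl gave 1 INO80 gene higher and 8 lower and 4 cohesin and looping genes higher and 4 lower (23.1% and 25.7%). Ctcf was called in none of the 3 (0.14 ± 0.13, adjusted p = 0.418, 0.00 ± 0.13, adjusted p = 1.00, and 0.00 ± 0.13, adjusted p = 1.00). Ino80 was called in each (0.39 ± 0.12, adjusted p = 0.0111, -0.57 ± 0.12, adjusted p = 5.88e-04, and -0.52 ± 0.12, adjusted p = 8.82e-04), the first not without EPS shYy1 replicate 2 (adjusted p = 0.0585). Ldb1 was called for the F4H response alone (0.90 ± 0.12, adjusted p = 1.70e-06, against -0.21 ± 0.12, adjusted p = 0.157, and 0.02 ± 0.12, adjusted p = 0.932), and for the hairpin also without EPS shCtrl replicate 2, at -0.42 (adjusted p = 1.73e-04). The other members that differed by at least 0.5 are given with the closing observations.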

How the data were processed

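RNA-seq was measured in 22 libraries of 10 groups. The deposited tables hold raw read counts per gene symbol. Per the submitters' processing notes, CASAVA, Bowtie2 2.3.2, mm10 and GRCm38.p6 were used. The counting tool, its strand setting and the read aligner's options are not given in the sources used here, so reads of overlapping or antisense genes cannot be told apart. Rows that name no gene were left out of library sizes and tests. Of gene counts and all such rows together, reads without a feature made up 5.61 to 8.62%, ambiguous reads 3.70 to 5.32% and reads not unique 5.45 to 6.66%.

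From the counts as deposited, CPM was computed per library, and changes were tested with edgeR 4.0.16 (TMM, filterByExpr, robust quasi-likelihood F-test, limma 3.58.1, R 4.3.3). The models were fitted on the 14 undifferentiated, the 8 day 6 and the 16 hairpin or overexpression libraries, with 16440, 15927 and 17207 genes tested. p-values were adjusted by Benjamini-Hochberg over all genes tested, and an adjusted p under 0.05 was called. The steps were tested on simulated data.

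The genes and lists were chosen with earlier results of these data known. A gene's values in each library are given where it was called with a log2 change of at least 0.5, or where its paralogue was, and Ctcf, Ino80 and Ldb1 are given in each comparison. Of the other lists at most 2 called genes are named. Levels were not compared between genes, since exon lengths were not used here.

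Replicate numbers pair the ES and EPS libraries by their deviations from the group means (correlations of 0.143, 0.207 and 0.417). Alternatives were RLE size factors, DESeq2 1.42.0, no filter on low counts, TMM factors without X-linked and Y-linked genes, a fit of the compared libraries alone, the replicate number as a block, and leaving out each library. Leaving out replicate 3 of both ES and EPS was chosen after seeing the data. CPM on TMM library sizes was the alternative for levels. Promoter sequences are from RefSeq (GRCm38.p6).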

Additional observations from a re-analysis of the deposited data

Results flagged for a closer look

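The effect of a construct, or of F4H medium, differed between stages or lines for 27 pairs of a gene and a contrast by at least 0.5 on the log2 scale, each by an edgeR test of the difference itself. How many of all genes were called at that size was not counted, so the 27 have no background. All values below are log2 differences of differences. Ctcf, Smc3, Rad21, Nipbl and both Pds5 genes are in none of the 27. Of these, Nipbl and Pds5a were called but fell short of that size. Nipbl gave 0.41 ± 0.14 for the hairpin and -0.43 ± 0.14 for the F4H response, and Pds5a 0.47 ± 0.11 and -0.40 ± 0.11.

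For the hairpin effect on day 6 minus that in undifferentiated EPS cells, Esco1 (0.92 ± 0.12), Rec8 (0.74 ± 0.21), Wapl (0.64 ± 0.10), Ino80c (1.05 ± 0.23) and Ino80d (0.70 ± 0.18) were higher. Esco1 and Ino80c both lie on chromosome 18, where the median was 0.24. Actr5 (-0.85 ± 0.19), Esco2 (-0.53 ± 0.12), Stag3 (-1.35 ± 0.34) and Smc1a (-0.54 ± 0.12) were lower, the last beside an X-linked median of -0.48. Smc1b gave -5.25 ± 1.22 (adjusted p = 0.00576), which was -4.39 and not called without day 6 EPS shCtrl replicate 1 (adjusted p = 0.0918). Without undifferentiated EPS shCtrl replicate 2 the value of Ino80c was 0.61 (adjusted p = 0.00120). On day 6 the libraries labelled shYy1 had no lower Yy1 by the test, so these differences set a contrast with lower Yy1 against one without it.

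For the overexpression effect on day 6 minus that in undifferentiated ES cells, Stag3 (2.30 ± 0.34, adjusted p = 2.88e-04), Esco2 (1.36 ± 0.12, adjusted p = 3.63e-08) and Actr8 (0.65 ± 0.13) were higher, and Esco1 (-0.52 ± 0.12), Ino80 (-0.57 ± 0.12) and Ino80c (-0.65 ± 0.24) were lower. Stag3 and Esco2, 1 a germ cell STAG and 1 an S phase acetyltransferase, thus went from lower to higher relative to the control. The call of Ino80c was lost without any 1 of 7 of the 8 libraries, the exception being undifferentiated ES oeCtrl replicate 2 (adjusted p from 0.0835 to 0.163).

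For the response to F4H of EPS shCtrl minus that of ES oeCtrl, Stag3 (1.52 ± 0.33), Esco2 (1.03 ± 0.12), Ldb1 (0.90 ± 0.12) and Actr5 (0.61 ± 0.19) were higher. Ino80d (-1.37 ± 0.18), Ruvbl1 (-1.08 ± 0.11), Ino80c (-0.90 ± 0.23), Uchl5 (-0.87 ± 0.12), Wapl (-0.53 ± 0.10), Ino80 (-0.52 ± 0.12) and Esco1 (-0.51 ± 0.12) were lower. The chromosome 18 median, beside Ino80c and Esco1, was -0.20 here. Without undifferentiated EPS shCtrl replicate 2, Ino80c gave -0.47 (adjusted p = 0.0106). Actr5 was not called without day 6 EPS shCtrl replicate 1 (adjusted p = 0.0749). This contrast and the other 2 share control libraries, so the values of a gene in them are not independent.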

How the results depend on the processing

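Calls with a log2 change of at least 0.5 and all results of Ctcf, Ino80 and Ldb1 were followed through the alternatives, 167 single-gene results. Of these 149 were called, of which 0 changed direction and 13 lost the call under at least 1 alternative, as given beside them above. Smaller calls were followed only through counts of called genes. One printed above without such a limit may therefore also be lost in an alternative. Counts of called genes in the 10 comparisons that include day 6 libraries stayed within 1.5 times. With the replicate number as a block, 14 genes were called for EPS against ES in place of 9. For ES oeYy1 against ES oeCtrl, a fit of these libraries alone called 14 in place of 9. Leaving out 1 library gave 7 to 14 for EPS against ES, 5 to 11 for EPS shYy1 against EPS shCtrl (8 with all libraries), 4 to 5 for ES oeYy1 against ES oeCtrl and 6 to 11 for EPS shCtrl against ES oeCtrl (10 with all libraries). In the other comparisons the replicates share only a number (correlations of -0.035 to 0.068). There the block moved no count of called genes by over 1.5 times, and among the genes followed it changed the call of Ctcf, which passed for EPS shYy1 against EPS shCtrl (adjusted p = 0.0330) and for EPS shCtrl against ES oeCtrl (adjusted p = 0.0403). Where leaving out a library left 1 in a group, its spread was taken from the other groups. Smc1b, the gene with the fewest counts, is the one most limited by depth. CPM per exon length was not run.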
